A study of Homo sapiens with 16 samples.

Results

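The 4 libraries described here compare nuclear with cytosolic RNA of H1299, a human non-small cell lung carcinoma line, and are 4 of the 16 libraries of the series. They are polyadenylated RNA from nuclei and from cytosol of H1299 cells transfected with a plasmid for Flag-tagged FLII, and from nuclei and from cytosol of H1299 cells transfected with the empty plasmid. FLII (flightless I) is an actin-binding protein of the gelsolin family. The study asked how FLII bears on messenger RNA after transcription, and for that it sequenced whole mRNA, ribosome-bound, cytosolic and nuclear RNA of H1299 and of HBE, labelled as an epithelial lung line. The labels give passage 15 to 18 for the cells. They do not say how nuclei and cytosol were separated, and each library is the only one of its group. The 2 libraries of a fraction therefore differ in plasmid, and nothing says that they came from more than 1 culture, so the p-values measure only the spread between these libraries, which may be technical.

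Genes were included when their reads summed to 50 or more over the 4 libraries, which held for 12490 of the 23709 genes listed. Reads assigned to genes totalled 6434358 (FLII overexpression) and 6295282 (vector) in the nuclear libraries, and 6243700 and 9259569 in the cytosol libraries. Levels are CPM, the read count relative to the library's total after TMM scaling, which uses a trimmed mean of gene ratios between libraries. Each value below is given for the FLII overexpression and the vector library of its fraction. A log2 fold is nuclear over cytosolic, so a positive one means a higher level in nuclear RNA. It is a ratio between shares of each library, not between molecules in a cell.

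A messenger RNA is made and spliced in the nucleus and leaves through the nuclear pores. Messages for secreted and membrane proteins are then held on the endoplasmic reticulum, whose membrane is continuous with the outer membrane of the nucleus, because a hydrophobic stretch at the start of the growing protein is bound by the signal recognition particle. Messages for soluble proteins are translated on free ribosomes. Some noncoding RNAs stay in the nucleus: MALAT1 lies in splicing speckles and NEAT1 builds paraspeckles.

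This hydrophobic stretch is shown for example messages from both sides of the comparison. The examples were picked by hand and all go with the pattern. Genes that go the other way, such as NOP58, AHNAK2 and PRR7, are given further below. Whether the stretch accounts for the side of a message was not tested. The lines below give the first 75 bases of the coding sequence, 5′ to 3′ on the sense strand, from GENCODE 29 transcripts (GRCh38). Capitals mark the codons of the most hydrophobic 10-residue window of the start where its mean hydropathy reached 2.0 on the Kyte-Doolittle scale. HSP90B1, PDIA3, FBN1 and APP were higher in nuclear RNA, and FTL, RPS6KB2 and ELK1, which have no such window, were lower.
HSP90B1: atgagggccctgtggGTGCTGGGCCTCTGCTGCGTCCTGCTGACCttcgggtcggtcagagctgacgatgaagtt
PDIA3: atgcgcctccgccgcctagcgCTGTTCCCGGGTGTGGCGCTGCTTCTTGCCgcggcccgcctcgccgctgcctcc
FBN1: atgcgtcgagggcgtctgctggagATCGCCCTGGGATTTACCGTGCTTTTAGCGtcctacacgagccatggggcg
APP: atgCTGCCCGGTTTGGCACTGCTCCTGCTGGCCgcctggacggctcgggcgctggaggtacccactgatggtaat
FTL: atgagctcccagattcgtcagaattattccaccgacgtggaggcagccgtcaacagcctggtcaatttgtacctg
RPS6KB2: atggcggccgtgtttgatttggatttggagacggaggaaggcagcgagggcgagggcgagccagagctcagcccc
ELK1: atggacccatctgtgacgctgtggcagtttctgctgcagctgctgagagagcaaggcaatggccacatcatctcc

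The nuclear label was checked on MALAT1 and NEAT1. Such a check does not tell whether endoplasmic reticulum stayed with the nuclei, which was not tested. A higher level in nuclear RNA below therefore means the nuclear libraries, not a place inside the nucleus. MALAT1 had 458 and 390.2 CPM in the nuclear libraries, against 41.8 and 37.4 CPM in the cytosol libraries. NEAT1 had 59.6 and 63.4 CPM in the nuclear libraries, against 14.1 and 10.5 CPM in the cytosol libraries. Both nuclear libraries lay above both cytosol libraries for each RNA. The log2 fold was 3.43 ± 0.140 (SE) for MALAT1 (edgeR quasi-likelihood test, Benjamini-Hochberg adjusted p = 5.05e-15) and 2.35 ± 0.171 for NEAT1 (adjusted p = 3.16e-11). RNA45S5, the precursor of ribosomal RNA made in the nucleolus, had 191 and 205 CPM in the nuclear libraries, against 32.7 and 22.2 CPM in the cytosol libraries (log2 fold 2.88 ± 0.152). FLII itself had 943 and 265 CPM in the nuclear libraries, against 1075 and 337 CPM in the cytosol libraries, so it was higher in the FLII overexpression library of each fraction. Between the fractions FLII had a log2 fold of -0.22 ± 0.367 (adjusted p = 0.619).

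MALAT1 is kept stable by an element near its 3′ end in which uridine-rich stretches fold with an adenosine-rich tract into a triple helix. The stretch is shown because it belongs to the RNA used as nuclear marker. It spans bases 8248 to 8367 of the 8708 bases of the GENCODE 29 transcript, and capitals mark a uridine-rich motif (T in DNA letters) and the adenosine run.
MALAT1: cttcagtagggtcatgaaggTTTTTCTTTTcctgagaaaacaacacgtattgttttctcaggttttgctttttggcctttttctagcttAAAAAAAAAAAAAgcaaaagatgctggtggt

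The fractions differed widely. Of the 12490 genes, 4079 (32.7%) were called higher and 3792 (30.4%) lower in nuclear RNA at an adjusted p under 0.05. A stricter count kept genes that were called and also 2-fold or more apart the same way in both the FLII overexpression pair and the vector pair: 1557 (12.5%) were higher and 1267 (10.1%) lower. The median log2 fold over all genes was 0.08. With library totals in place of TMM this median was 0.445, and 5752 genes were called higher and 2379 lower. The deposited RPKM gave 5310 higher and 2407 lower. Class medians below are therefore read against the median of all genes. Counts of class members called are likewise read against 32.7% higher and 30.4% lower of all genes.

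Both pairs gave a similar order of genes. Across genes, which are not independent replicates and share their libraries, Spearman's rho between the log2 folds of the 2 pairs was 0.864 over 12490 genes. Genes typical of HBE departed from this. Of 8 such markers fixed as a list, KRT14, CDH1 and TRIM29 had too few reads, and the other 5 summed to 14.4 and 12.4 CPM in the nuclear libraries, against 145 CPM in the FLII overexpression cytosol library and 11.4 CPM in the vector cytosol library. The basal keratin KRT17 had 5.07 and 2.71 CPM in the nuclear libraries, against 84.3 and 5.13 CPM in the cytosol libraries, and the imprinted noncoding RNA H19 had 2.27 and 2.86 CPM in the nuclear libraries, against 58.9 and 3.81 CPM in the cytosol libraries. KRT17, KRT5, KRT19, SFN and H19 were called lower in nuclear RNA, and each had its highest level in the FLII overexpression cytosol library. Without that library, 4037 genes (33.3%) were higher and 3840 (31.7%) lower of 12110. KRT17 then had a log2 fold of -0.37 (edgeR adjusted p = 0.315), against -3.44 with it. KRT5, KRT19 and SFN had fewer than 50 reads left and were not tested without it. Counts without it are given beside those of several classes.

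**Figure D1:**
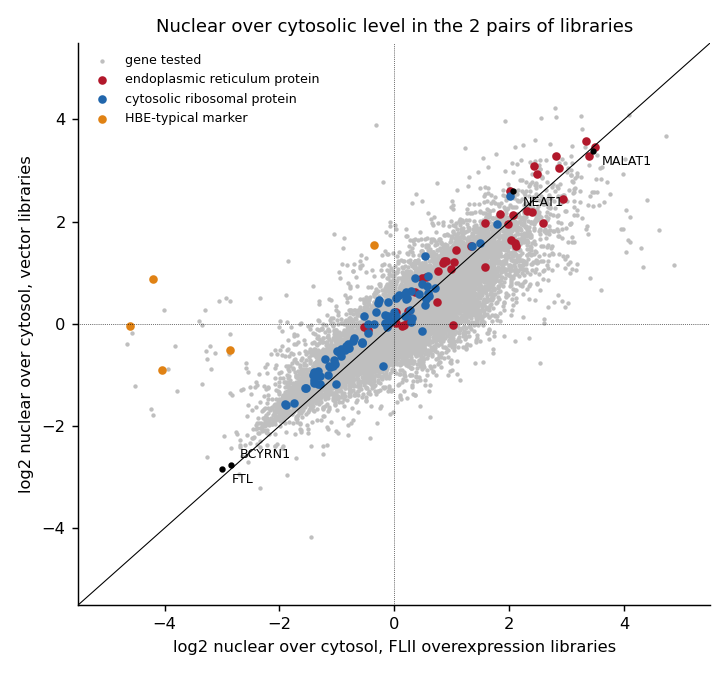
Log2 fold of nuclear over cytosolic level in the FLII overexpression libraries (x axis) and in the vector libraries (y axis), 1 point a gene, with the diagonal drawn. MALAT1 and NEAT1 lie high in both pairs, FTL and BCYRN1 low in both, and 4 of the 5 HBE-typical markers lie between -4.59 and -2.86 in the FLII overexpression pair and between -0.90 and 0.88 in the vector pair.

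The genes with the largest shift to nuclear RNA included those for chaperones of the endoplasmic reticulum and for matrix proteins. The largest folds among genes with a mean of 10 CPM or more that were 2-fold higher in both pairs included those of FBN1, HSP90B2P, HSP90B1, PDIA3, MALAT1, FN1, LOC441081, ERP44, GLG1, SYNM and TM9SF2, from 3.70 down to 3.25. HSP90B1, the HSP90 chaperone of the endoplasmic reticulum, had 518 and 519 CPM in the nuclear libraries, against 45.9 and 47.2 CPM in the cytosol libraries. PDIA3, which forms disulfide bonds there, had 299.8 and 315 CPM in the nuclear libraries, against 29.5 and 26.2 CPM in the cytosol libraries. For both genes the libraries of a fraction lay close together. The fractions did not overlap, which the choice of genes 2-fold apart in both pairs makes likely. The log2 fold was 3.48 ± 0.134 for HSP90B1 and 3.47 ± 0.137 for PDIA3 (adjusted p = 3.18e-15 for each). FBN1 encodes fibrillin-1 of the extracellular matrix and had 29.3 and 26.9 CPM in the nuclear libraries, against 3.01 and 1.55 CPM in the cytosol libraries (log2 fold 3.70 ± 0.259). FN1, the gene of fibronectin, had 26.9 and 24.4 CPM in the nuclear libraries, against 3.76 and 1.43 CPM in the cytosol libraries. The cytosol libraries differed from each other for both matrix genes, so the vector pair gave larger folds than the FLII overexpression pair: 3.24 in the FLII overexpression pair and 4.06 in the vector pair for FBN1, and 2.81 and 4.04 for FN1. HSP90B2P and LOC441081 are listed as pseudogenes. HSP90B2P resembles HSP90B1 closely enough that reads may be shared, and its value is uncertain.

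**Figure D2:**
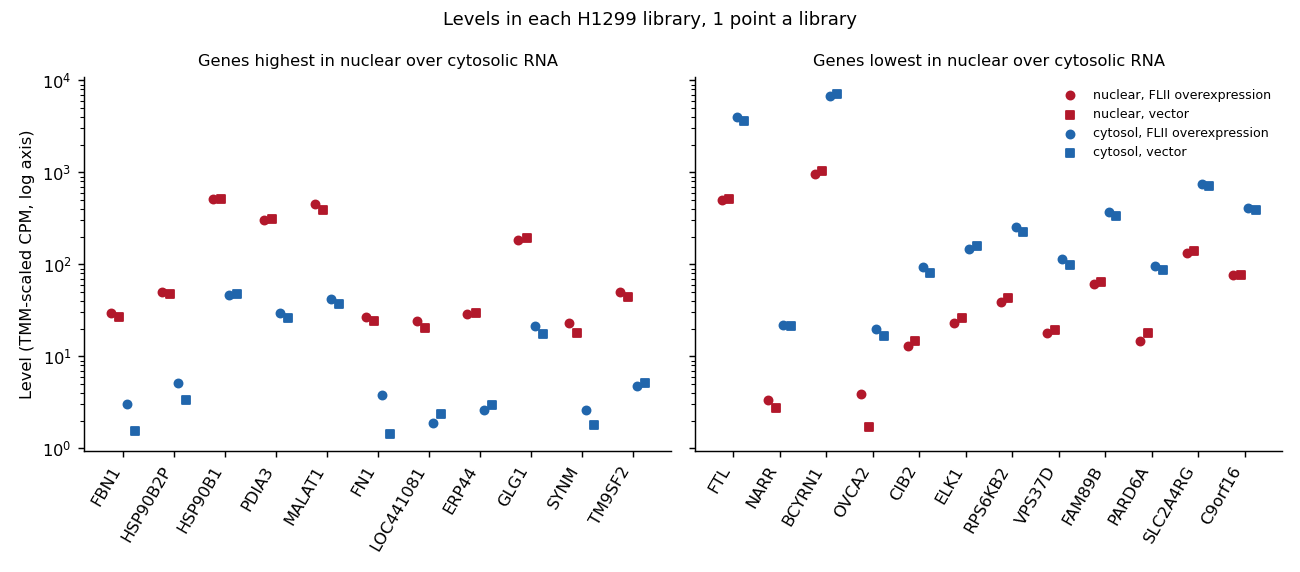
Level of genes with the largest log2 folds in each direction (TMM-scaled CPM, log axis), with nuclear libraries in red and cytosol libraries in blue, 1 point a library. In each gene plotted both nuclear libraries lie on the same side of both cytosol libraries. The genes were chosen as 2-fold or more apart the same way in both pairs, so this follows largely from the choice.

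The endoplasmic reticulum list, of chaperones, translocon, oligosaccharyltransferase and other resident proteins, was higher as a group. Of its 42 genes, all tested, 32 higher and 2 lower were called, 23 were 2-fold or more higher and 0 were 2-fold or more lower in both pairs, and the median log2 fold was 1.30. HSPA5, the chaperone BiP, had 342 and 347 CPM in the nuclear libraries, against 48.4 and 35.8 CPM in the cytosol libraries (log2 fold 3.05 ± 0.143). DNAJB11, a partner of BiP, had 114 and 119 CPM in the nuclear libraries, against 15.4 and 14.3 CPM in the cytosol libraries (2.97 ± 0.147). The thioredoxin-family protein ERP44 had 28.5 and 29.4 CPM in the nuclear libraries, against 2.63 and 2.98 CPM in the cytosol libraries. CANX, the lectin chaperone calnexin, had 324 and 310.0 CPM in the nuclear libraries, against 61.7 and 67.7 CPM in the cytosol libraries (log2 fold 2.29 ± 0.126). SSR4, a subunit of the translocon-associated complex, and SDF2L1, a stress-induced protein of the endoplasmic reticulum, were the 2 called lower, at -0.29 and -0.29, and neither held with totals or RPKM, where both turned positive. Without the FLII overexpression cytosol library the counts were 32 higher and 0 lower.

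Lysosomal genes, whose products pass through the same membranes, were shifted alike. Of 27 lysosomal genes 24 higher and 1 lower were called, 18 were 2-fold or more higher and 0 were 2-fold or more lower in both pairs, and the median was 1.34. NPC1, which exports cholesterol from lysosomes, had 49.1 and 41.7 CPM in the nuclear libraries, against 6.02 and 5.24 CPM in the cytosol libraries (log2 fold 3.02 ± 0.198). The membrane protein LAMP1 (2.34) and the protease cathepsin L, CTSL1 (2.33), were higher too. The exception was IDS, iduronate sulfatase, with 17.5 and 18.9 CPM in the nuclear libraries, against 32.0 and 33.1 CPM in the cytosol libraries (log2 fold -0.84 ± 0.167, adjusted p = 0.000112).

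Matrix and adhesion genes showed the same side. Of 42 collagen genes in the files 8 were tested, of which 6 higher and 0 lower were called, with a median of 1.45. COL12A1 had 16.3 and 14.6 CPM in the nuclear libraries, against 1.32 and 1.43 CPM in the cytosol libraries (log2 fold 3.46 ± 0.290). COL6A1 had 80.6 and 88.4 CPM in the nuclear libraries, against 21.3 and 18.6 CPM in the cytosol libraries. COL7A1 and COL17A1 were the 2 collagens not called. COL7A1 had 4.53 and 4.43 CPM in the nuclear libraries, against 8.47 and 1.55 CPM in the cytosol libraries, with its highest level in the FLII overexpression cytosol library, and without that library all 8 collagens were called higher. Of 12 laminin chains 10 were tested, of which 7 higher and 0 lower were called, with a median of 1.93 (1.52 in the FLII overexpression pair and 2.05 in the vector pair). LAMB1 had 41.2 and 41.6 CPM in the nuclear libraries, against 6.96 and 2.5 CPM in the cytosol libraries, and LAMC1 had 82.4 and 82.4 CPM in the nuclear libraries, against 16.7 and 12 CPM in the cytosol libraries. The cytosol values of LAMB1 differed between the plasmids, and all of them lay under the nuclear values.

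Adhesion receptors followed. Of 10 integrin chains tested, 6 higher and 1 lower were called. ITGB1, the common beta chain, had 341 and 342 CPM in the nuclear libraries, against 69.0 and 94.0 CPM in the cytosol libraries (log2 fold 2.06 ± 0.137). ITGB4, the chain of epithelial hemidesmosomes, was the 1 called lower, with 27.1 and 27.9 CPM in the nuclear libraries, against 60 and 32.7 CPM in the cytosol libraries. The FLII overexpression cytosol library held the highest value, and without the FLII overexpression cytosol library no integrin was called lower. Of 26 cadherins tested, 22 higher and 1 lower were called and 14 were 2-fold or more higher and 1 were 2-fold or more lower in both pairs. CDH2, N-cadherin, had 29.2 and 29.1 CPM in the nuclear libraries, against 5.08 and 5.84 CPM in the cytosol libraries (log2 fold 2.40 ± 0.205), while CDH24 had 9.06 and 9.14 CPM in the nuclear libraries, against 21.3 and 18.5 CPM in the cytosol libraries (-1.12 ± 0.197). PCDHGB3 (1.69) shares its last exons with other genes of its cluster, so its value is uncertain.

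Transporters were split. Of 204 solute carriers 92 higher and 40 lower were called, 48 were 2-fold or more higher and 14 were 2-fold or more lower in both pairs, and the median was 0.42. The bicarbonate transporter SLC4A7 had 182 and 178 CPM in the nuclear libraries, against 29 and 33.1 CPM in the cytosol libraries (log2 fold 2.52 ± 0.133), and SLC38A2, an amino acid transporter of the cell surface, had 208 and 196 CPM in the nuclear libraries, against 38.8 and 54.8 CPM in the cytosol libraries (2.09 ± 0.142). Of the 40 called lower, the 2 with the smallest p were both carriers of the inner mitochondrial membrane. Whether such carriers lay on the lower side as a group was not tested. SLC25A39 had 69.1 and 70.7 CPM in the nuclear libraries, against 386 and 333 CPM in the cytosol libraries (-2.36 ± 0.128), and SLC25A10 had 44.1 and 52.7 CPM in the nuclear libraries, against 204 and 164 CPM in the cytosol libraries (-1.93 ± 0.137). The TMEM genes, a naming group of membrane proteins with no common function, did not stand on either side: 48 higher and 50 lower of 155 were called, with a median of 0.06. TMEM30A, a flippase subunit, had a log2 fold of 2.28, and TMEM54 one of -2.10.

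The hydrophobic stretch was then looked for in the reading frame of every gene with one. Of 2125 tested genes with a stretch at the start, 1004 higher and 463 lower were called, 25.1% were 2-fold or more higher in both pairs and 7.20% lower, and the median was 0.46. The 1818 genes with a membrane-length stretch only later in the protein had a median of 0.21. This group holds PRRC2C, MLL and the ribosomal protein RPS2, and the start group holds LDHB, so a stretch alone does not mark a membrane protein. Median length was 3755.5 bases for genes with a later stretch alone and 2965 for genes with neither. The 7299 genes with neither had a median of -0.02, with 2032 higher and 2470 lower. A stretch at the start was found in 36 of 40 endoplasmic reticulum genes with a reading frame and 26 of 27 lysosomal genes, against 2 of 83 cytosolic ribosomal protein genes. The TMEM genes had a stretch at the start in 151 of 229, yet their median log2 fold was 0.06, near that of all genes (0.08). Solute carriers had it in 181 of 364, with a median of 0.42. A stretch at the start thus did not go with a nuclear shift in every class. Such a stretch was found in 38.4% of the coding genes 2-fold higher in nuclear RNA, 13.4% of those 2-fold lower and 18.9% of all. Exceptions ran both ways. PRR7, which has a stretch at the start, had 46.7 and 52.0 CPM in the nuclear libraries, against 224 and 221 CPM in the cytosol libraries (log2 fold -2.17 ± 0.126). AHNAK2, a giant scaffold protein with no stretch, had 525 and 535 CPM in the nuclear libraries, against 73.6 and 62.9 CPM in the cytosol libraries (2.96 ± 0.134), and NOP58, a core protein of box C/D snoRNPs with none, had 190.2 and 198 CPM in the nuclear libraries, against 20.9 and 26.7 CPM in the cytosol libraries (3.01 ± 0.141).

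**Figure D3:**
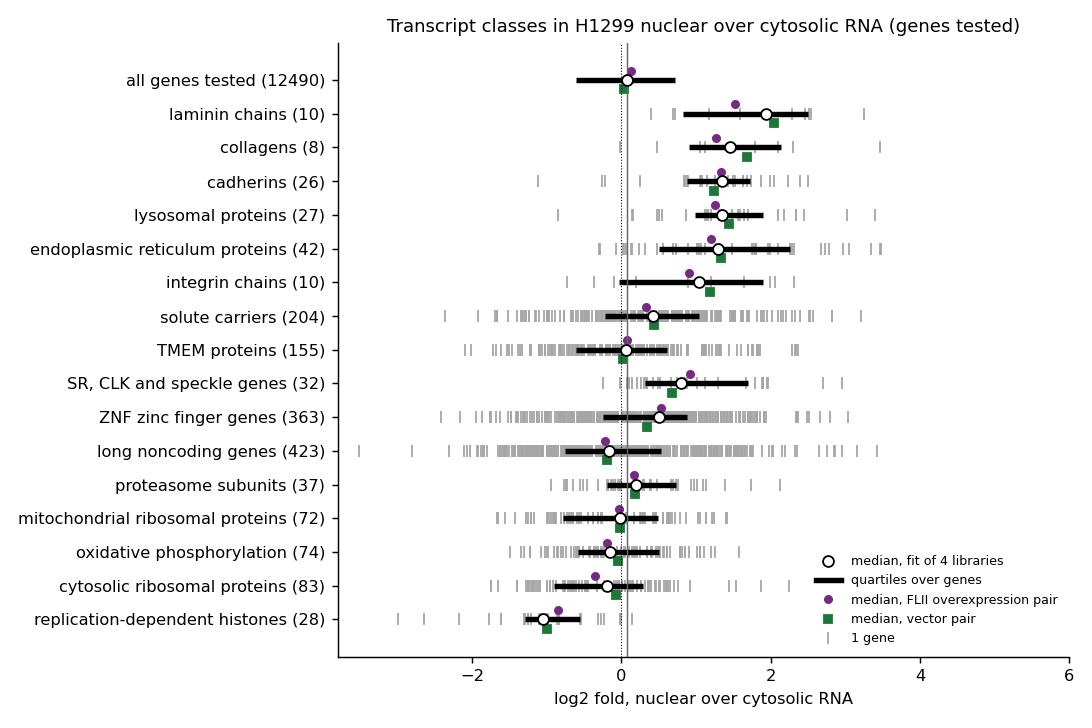
Log2 fold of nuclear over cytosolic level by class, with 1 grey tick a gene, the quartiles as a bar and the median as an open circle, and the medians of the FLII overexpression pair and the vector pair as filled marks. Matrix, lysosomal and endoplasmic reticulum genes lie to the right of the median of all genes (grey line, 0.08), and replication-dependent histones to the left of it.

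Long transcripts lay on the nuclear side and short ones on the cytosolic side. The median log2 fold was -0.54 for 736 genes under 1 kb of deposited length, -0.35 for 1 to 2 kb, 0.03 for 2 to 4 kb, 0.28 for 4 to 6 kb, 0.55 for 6 to 8 kb and 0.72 for 687 genes of 8 kb or more. Less the median of all genes, that of the longest genes was 0.64, against 0.35 with the deposited RPKM. Of the longest genes 422 were called higher and 33 lower, and 203 were 2-fold higher in both pairs against 2 that were 2-fold lower. Of the shortest, 125 were called higher and 395 lower, with 25 and 151 past 2-fold. Among the longest, PRRC2C (10384 bases), a protein of stress granules, had 326 and 341 CPM in the nuclear libraries, against 38.8 and 42.3 CPM in the cytosol libraries (log2 fold 3.04 ± 0.131). The histone methyltransferase gene MLL had 210.2 and 192 CPM in the nuclear libraries, against 24.6 and 27.8 CPM in the cytosol libraries (2.93 ± 0.136). SBF1, of 8017 bases, had 68.7 and 72.6 CPM in the nuclear libraries, against 170.3 and 152 CPM in the cytosol libraries (-1.19 ± 0.123). Among the shortest, PTRH2 went the other way (2.00).

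Base composition moved with the same contrast. GC content was taken from the GENCODE transcript for 12318 genes, and its Spearman's rho with the log2 fold across genes was −0.554, against 0.35 for length over 12490 genes. Genes 2-fold higher in nuclear RNA had a median GC content of 44.1% and a median length of 3932 bases, while genes 2-fold lower had 61.1% and 1958 bases, and all genes 49.8% and 2986 bases. The median log2 fold was 0.57 in the lowest tertile of GC content, 0.17 in the middle tertile and -0.71 in the highest tertile. Library composition also followed GC within a fraction. The rho of GC content with the ratio of the FLII overexpression to the vector library was −0.272 in nuclear RNA and 0.526 in cytosol, and the fold of the FLII overexpression pair followed GC more closely (−0.628) than that of the vector pair (−0.45). The part of GC in the class differences beyond the strata below was not tested.

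Within each tertile of GC content, genes with a stretch at the start had a higher median than genes with none. The medians were 0.91 against 0.47 at low GC, 0.71 against 0.08 at middle GC and -0.26 against -0.86 at high GC. The same order held in each length bin, from -0.44 against -0.53 under 1 kb to 1.17 against 0.53 at 8 kb or more. The tested collagens had a median GC content of 62.4%, near that of the genes on the cytosolic side. COL6A1, with 63.5% GC, had a log2 fold of 2.09 ± 0.148.

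**Figure D4:**
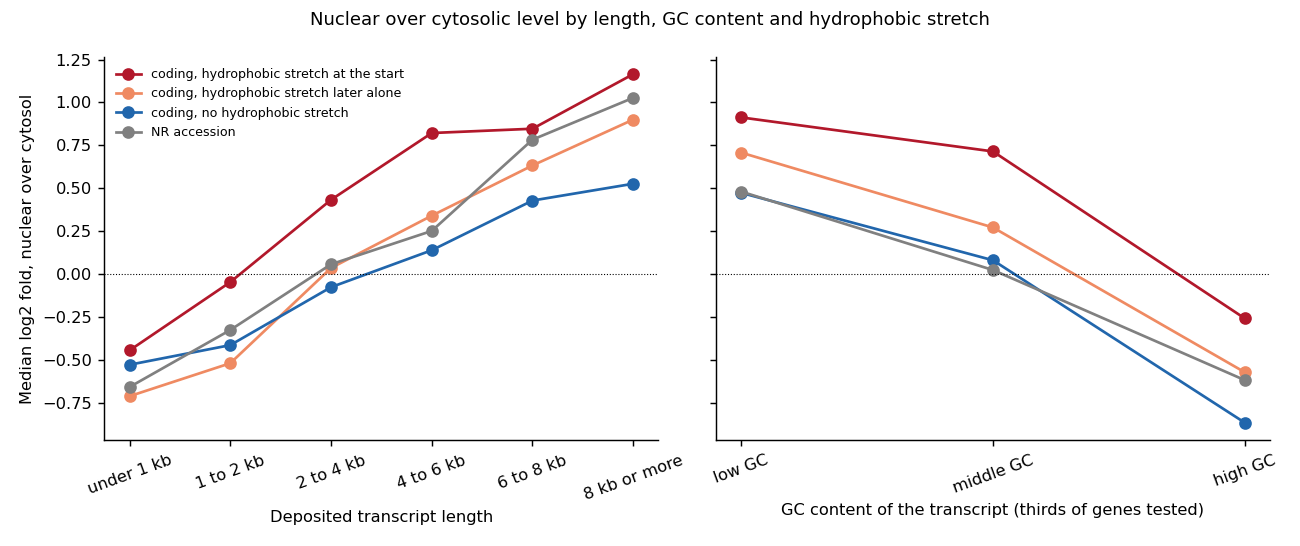
Median log2 fold of nuclear over cytosolic level by deposited length (left) and by tertile of GC content (right), for coding genes with a hydrophobic stretch at the start, later alone or not at all, and for NR accessions. Medians go up with length, from −0.53 to 0.53 for genes without a stretch, and down with GC content, from 0.47 to −0.86 for the same genes.

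Noncoding transcripts were not on the nuclear side as a class. Of 1149 genes with an NR accession 340 higher and 335 lower were called and 149 were 2-fold or more higher and 107 were 2-fold or more lower in both pairs, with a median of -0.01. This class is mixed, since 414 of them are protein-coding genes in RefSeq. The 423 that RefSeq calls long noncoding had a median of -0.17, with 97 higher and 136 lower, and 53 were 2-fold or more higher and 47 were 2-fold or more lower in both pairs. Besides MALAT1 and NEAT1, the higher side held KCNQ1OT1, an antisense transcript that silences genes in cis, with 119 and 115 CPM in the nuclear libraries, against 32.4 and 41.4 CPM in the cytosol libraries (log2 fold 1.65 ± 0.138). It overlaps KCNQ1, and since the use of strand in counting is not given, reads of the pair cannot be told apart. MIR17HG, the precursor of the miR-17-92 cluster, had 6.13 and 4.57 CPM in the nuclear libraries, against 0.564 and 0.834 CPM in the cytosol libraries (2.85 ± 0.428). On the lower side was BCYRN1, the small cytoplasmic RNA BC200 of 191 bases, with 952 and 1046 CPM in the nuclear libraries, against 6834 and 7083 CPM in the cytosol libraries (-2.8 ± 0.158). DANCR had 22.3 and 28.1 CPM in the nuclear libraries, against 72.1 and 63.5 CPM in the cytosol libraries (-1.43 ± 0.152), and SNHG15, the host of a small nucleolar RNA, had 74.4 and 79.4 CPM in the nuclear libraries, against 218 and 197 CPM in the cytosol libraries (-1.43 ± 0.123). Of 19 tested RNAs on a list of regulatory long noncoding RNAs, 6 higher and 7 lower were called, and 7 higher and 5 lower without the FLII overexpression cytosol library.

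Pseudogenes on the nuclear side included copies of nuclear-side genes. As a class they lay near all genes. Of 272 pseudogenes 87 higher and 74 lower were called, beside 32.7% and 30.4% of all genes. In both pairs 15.1% were 2-fold or more higher and 9.56% lower, beside 12.5% and 10.1% of all genes. PDIA3P had 90.4 and 91.7 CPM in the nuclear libraries, against 13.7 and 7.99 CPM in the cytosol libraries (3.12 ± 0.182), near the fold of PDIA3. Reads of such copies may come from the parent gene, and these values are uncertain.

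Zinc finger genes were on the nuclear side by a smaller margin. The ZNF symbols name mostly C2H2 zinc finger transcription factors, in which pairs of cysteines and histidines hold a zinc ion. Of 496 ZNF genes 363 were tested, 141 higher and 68 lower were called, 47 were 2-fold or more higher and 24 were 2-fold or more lower in both pairs, and the median was 0.51 (0.53 in the FLII overexpression pair and 0.35 in the vector pair). Less the median of all genes the ZNF median was 0.43, against 0.27 at 200 or more summed reads and 0.18 with the deposited RPKM. The percentage past 2-fold in the higher direction, 12.9%, was close to that of all genes (12.5%). ZNF638, a nuclear protein that binds nucleic acids, had 33.3 and 32.4 CPM in the nuclear libraries, against 3.95 and 5.24 CPM in the cytosol libraries (log2 fold 2.8 ± 0.212). ZNF292 had 28.7 and 25 CPM in the nuclear libraries, against 5.64 and 8.22 CPM in the cytosol libraries (1.91 ± 0.209), and ZNF84 had 16.5 and 18.4 CPM in the nuclear libraries, against 5.46 and 4.77 CPM in the cytosol libraries (1.78 ± 0.223). ZNF358 lay on the other side with 33.9 and 35.0 CPM in the nuclear libraries, against 158 and 149 CPM in the cytosol libraries (-2.16 ± 0.129), and so did ZNF688 (-1.95).

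The side of a ZNF gene went with its base composition. The median was 0.70 for the 188 ZNF genes in the lowest tertile of GC content, 0.51 for 98 in the middle tertile and -0.72 for 77 in the highest, against 0.57, 0.19 and -0.72 for other coding genes. ZNF84 has a GC content of 38.9% and ZNF358 one of 69.1%. Their codons for the first finger of the type with 2 residues between the cysteines are printed to make that difference visible, with the cysteine and histidine codons in capitals (GENCODE 29, GRCh38, sense strand). The search found 19 fingers in ZNF84 and 9 in ZNF358. The 280 genes with 8 or more C2H2 fingers had a median of 0.56, with 126 higher and 36 lower.
ZNF84: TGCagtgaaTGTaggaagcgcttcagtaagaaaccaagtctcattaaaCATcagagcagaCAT
ZNF358: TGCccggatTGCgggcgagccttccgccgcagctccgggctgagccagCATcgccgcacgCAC

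Genes for splicing factors lay on the nuclear side. Of 32 genes for SR proteins, CLK kinases and speckle proteins 25 higher and 0 lower were called, 10 were 2-fold or more higher in both pairs, and the median was 0.80. LUC7L3, a U1 snRNP-associated protein, had 172 and 155 CPM in the nuclear libraries, against 19.8 and 29.3 CPM in the cytosol libraries (log2 fold 2.71 ± 0.154). PNISR had 86.4 and 73.8 CPM in the nuclear libraries, against 7.71 and 12.3 CPM in the cytosol libraries (2.95 ± 0.181), and the speckle scaffold SON had 415 and 414 CPM in the nuclear libraries, against 102 and 136 CPM in the cytosol libraries (1.79 ± 0.136). Their median GC content was 45.5%. Without the FLII overexpression cytosol library the counts were 23 higher and 1 lower.

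Ribosomal protein genes lay slightly on the cytosolic side and were spread over both. Those of the cytosolic ribosome had a median length of 732 bases, and all genes under 1 kb had a median log2 fold of -0.54. Cytosolic ribosomal protein genes took 15.4% and 16.1% of reads in the nuclear libraries and 18.9% and 17.9% in the cytosol libraries. Of 83 cytosolic ribosomal protein genes tested 20 higher and 40 lower were called, 4 were 2-fold or more higher and 13 were 2-fold or more lower in both pairs, and the median was -0.20 (-0.35 in the FLII overexpression pair and -0.07 in the vector pair). Without the FLII overexpression cytosol library the median was -0.06, with 25 higher and 40 lower. RPLP0, of the ribosomal stalk, had 1781 and 1908 CPM in the nuclear libraries, against 6704 and 5670.5 CPM in the cytosol libraries (log2 fold -1.75 ± 0.156). RPS2 had 3184 and 3336 CPM in the nuclear libraries, against 10699 and 9777 CPM in the cytosol libraries (-1.65 ± 0.159). RPL11 and RPS24 went the other way. RPL11, which also binds MDM2, had 1649 and 1741 CPM in the nuclear libraries, against 409.8 and 306 CPM in the cytosol libraries (2.25 ± 0.150), and RPS24 had 691 and 761 CPM in the nuclear libraries, against 201 and 197 CPM in the cytosol libraries (1.87 ± 0.128). Ribosomal protein genes have many processed copies in the genome, so their counts may be split and are uncertain to that extent. Mitochondrial ribosomal proteins were balanced, with 24 higher and 31 lower of 72 and a median of -0.02. MRPL12 had 409 and 454 CPM in the nuclear libraries, against 1457 and 1255 CPM in the cytosol libraries (-1.65 ± 0.137), while MRPL3 had 87.4 and 77.3 CPM in the nuclear libraries, against 31.8 and 37.5 CPM in the cytosol libraries (1.24 ± 0.140).

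Among genes with a mean of 10 CPM or more that were 2-fold lower in both pairs, FTL had the largest shift to the cytosol. FTL, the ferritin light chain that stores iron, had 497 and 508 CPM in the nuclear libraries, against 3961 and 3632 CPM in the cytosol libraries (log2 fold -2.92 ± 0.150, adjusted p = 1.35e-13). ELK1, a transcription factor phosphorylated by MAP kinases, had 23.2 and 25.9 CPM in the nuclear libraries, against 146 and 157 CPM in the cytosol libraries (-2.63 ± 0.136), and RPS6KB2, a kinase of ribosomal protein S6, had 39.1 and 42.7 CPM in the nuclear libraries, against 252 and 227 CPM in the cytosol libraries (-2.55 ± 0.130). The nuclear and cytosolic values did not overlap in any of these, which the choice of genes 2-fold apart in both pairs makes likely. The other genes of the 12 lowest were NARR, BCYRN1, OVCA2, CIB2, VPS37D, FAM89B, PARD6A, SLC2A4RG and C9orf16, down to -2.83. NARR lies within RAB34 and OVCA2 within DPH1, so their reads cannot be told from those genes and are uncertain.

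Replication-dependent histone genes, whose messages mostly end in a stem-loop and not in a poly(A) tail, were lower in nuclear RNA. Of 68 in the files 28 were tested, 0 higher and 22 lower were called, 9 were 2-fold or more lower in both pairs, and the median was -1.05. Their median length was 479.5 bases and their median GC content 57.6%. All genes under 1 kb had a median of -0.54, and all genes in the highest tertile of GC content -0.71. The libraries were of polyadenylated RNA, so these reads may come from a minority of histone messages. HIST2H3A had 0.533 and 0.857 CPM in the nuclear libraries, against 5.64 and 5.6 CPM in the cytosol libraries (-2.99 ± 0.419), where 3 reads amount to 0.466 and 0.477 CPM of the unscaled nuclear totals. HIST2H2AA3 had 31.5 and 44.6 CPM in the nuclear libraries, against 81.1 and 79.7 CPM in the cytosol libraries (-1.08 ± 0.149), and it has a near-identical copy, so its value is uncertain. Without the FLII overexpression cytosol library 15 were called lower.

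The same contrast in HBE was used to test where H1299 differed. The HBE libraries were nuclear and cytosolic RNA of cells with a short hairpin RNA against FLII and of cells with the control named NC, 1 library each. Over 10684 genes with 50 or more reads in the 4 libraries of each line, the nuclear over cytosolic fold was higher in H1299 for 782 genes (7.32%) and lower for 633 (5.92%), by an edgeR test of the interaction of line and fraction. The class medians of the 2 lines, over genes tested in both, were 1.30 in H1299 and 1.62 in HBE for endoplasmic reticulum genes, 1.34 and 1.36 for lysosomal genes, and -0.19 and -0.61 for cytosolic ribosomal protein genes. Differences between class medians were not tested.

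CXCL2, TFRC and MAPK8IP3 were among the genes that differed. CXCL2, a chemokine that draws neutrophils, had 203 and 236 CPM in H1299 nuclear RNA against 674 and 627 CPM in H1299 cytosol, and 39.6 and 45.4 CPM in HBE nuclear RNA against 28.2 and 31.7 CPM in HBE cytosol, scaled over the 8 libraries. It was thus lower in nuclear than cytosolic RNA in H1299 and higher in HBE, with a difference in log2 fold of -2.07 ± 0.181 (adjusted p = 4.13e-07). CXCL3, of the same family, had a log2 fold of -2.18 in H1299 and 0.42 in HBE. TFRC, the transferrin receptor, had 100.0 and 91.7 CPM in H1299 nuclear RNA against 37.3 and 42.8 CPM in H1299 cytosol, and 243 and 242 CPM in HBE nuclear RNA against 33.1 and 31.1 CPM in HBE cytosol, with a difference of -1.67 ± 0.167 (adjusted p = 3.56e-06). Its shift to nuclear RNA was present in both lines and smaller in H1299. MAPK8IP3, a scaffold of JNK signalling, had 40.3 and 33.9 CPM in H1299 nuclear RNA against 16.2 and 15.2 CPM in H1299 cytosol, and 162 and 159.5 CPM in HBE nuclear RNA against 325 and 274 CPM in HBE cytosol, with a difference of 2.15 ± 0.183 (adjusted p = 3.77e-07). The line and the plasmid or hairpin cannot be told apart in this contrast, since the FLII states of the lines were made in different ways.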

How the data were processed

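The authors deposited, for each library, read counts and RPKM for 23709 RefSeq genes, with splice variants merged into 1 entry and a length, per the file headers. Libraries were made from polyadenylated RNA with an Illumina mRNA kit, per the labels' protocols. Builds listed by the submitters' processing notes were GRCh37 and hg19. The sources used here give no aligner, counting tool, use of strand or method of separating nuclei. GENCODE 29 and RefSeq tables are of another build, so no coordinates are printed.

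The deposited read counts were tested with edgeR 4.0.16 (quasi-likelihood, TMM scaling, R 4.3.3) with fraction as the only term, over genes with 50 or more summed reads, and p-values were adjusted by Benjamini-Hochberg over all genes tested. A gene was called at an adjusted p under 0.05. Pair folds add 0.5 reads to each count and carry 95% exact (Clopper-Pearson) intervals, which cover counting error only. The SE of a log2 fold is its size divided by the square root of the F statistic. Difference between lines: interaction of line and fraction over 8 libraries.

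The members and lists were chosen with earlier results of these data known. Genes named are MALAT1 and NEAT1, the 12 largest folds each way at a mean of 10 CPM or more and 2-fold in both pairs, up to 4 members of a class on its median's side and 2 on the other by smallest p, and 6 each way of the line comparison. COL7A1, COL17A1, FLII and H19 were named after their values were seen. Symbols that look like dates were tested and not named, and some genes that these rules choose are not reported here.

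Hydrophobic stretches, C2H2 fingers, GC content, RefSeq gene types and strata were defined after the data were seen. Reading frames were taken from GENCODE transcripts for 11242 of 11341 tested NM genes, and a transcript was matched for 98.6% of tested genes. A stretch at the start is either of 2 windows. It is a 10-residue window of mean hydropathy 2.0 or more starting by residue 25, or a 19-residue window of 1.6 or more starting in the first 40 residues. The second kind can also catch a membrane span near the start. A later stretch is a 19-residue window of 1.6 or more starting after residue 40. A finger is 2 cysteines 2 or 4 residues apart, 12 residues, then 2 histidines 3 to 5 residues apart, in the protein.

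Alternatives were total counts, DESeq2 1.42.0 size factors and test, 1 or 200 summed reads, plasmid as a term, the deposited RPKM with 1 added (limma 3.58.1, 1 RPKM or more in a library), no genes 8-fold apart between the lines, and each library left out. On simulated counts with 200 genes changed, the nuclear over cytosol fit over 12494 genes recovered 86.0% of genes raised 2-fold and 71.7% of genes lowered 2-fold. It called 0.065% of the unchanged. The simulated libraries shared 1 profile and a fixed dispersion. They lacked the many changed genes, the GC trend between libraries and the HBE-typical genes of 1 cytosol library. These rates therefore need not hold for the real libraries.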

Additional observations from a re-analysis of the deposited data

Results flagged for a closer look

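The nuclear over cytosolic fold was higher in H1299 than in HBE for 782 (7.32%) and lower for 633 (5.92%) of 10684 genes by the edgeR test of the interaction. The 12 genes named here are the 6 with the smallest p in each direction. That they passed an adjusted p under 0.05, and 6 each way, follows from this choice. The fold was higher in H1299 than in HBE for MIR4461 (difference in log2 fold 3.76), MAPK8IP3 (2.15), CD68 (1.61), VGF (2.63), ANKRD11 (1.46) and MAPK13 (1.84). It was lower in H1299 for CXCL2 (-2.07), TFRC (-1.67), CXCL3 (-2.55), SPTBN1 (-2.34), FAT1 (-2.21) and THRAP3 (-1.43). MIR4461 had 7.12 and 8.30 CPM in H1299 nuclear RNA against 3.37 and 3.10 CPM in H1299 cytosol, and 8.90 and 8.14 CPM in HBE nuclear RNA against 55.1 and 41.4 CPM in HBE cytosol, which is 19 to 64 reads in the H1299 libraries. SPTBN1, a spectrin of the membrane skeleton, had 100.3 and 99.0 CPM in H1299 nuclear RNA against 19.5 and 16.1 CPM in H1299 cytosol, and 121 and 109.5 CPM in HBE nuclear RNA against 3.91 and 4.14 CPM in HBE cytosol. VGF, a secreted neuropeptide precursor, had 481 and 487 CPM in H1299 nuclear RNA against 203 and 158 CPM in H1299 cytosol, and 3.87 and 4.43 CPM in HBE nuclear RNA against 11.3 and 7.59 CPM in HBE cytosol, so its HBE fold rests on 33 to 55 reads a library. VGF, MAPK13 and FAT1 differ 8-fold or more in level between the lines.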

How the results depend on the processing

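Of 179 genes chosen by the naming rules, results under the alternatives kept direction and side of the threshold in 2075 cases, lost the call in 32 and changed sign in 4. The 4 were SDF2L1 (log2 fold 0.0736 with the deposited RPKM and 0.0785 with total counts) and SSR4 (0.0859 and 0.0852). A gene that was not tested under an alternative gave no case. The naming rules took these genes from the main fit, mostly for a large fold or a small p. Their calls were therefore likely to hold, which says little of the other genes called. Genes higher in nuclear RNA numbered 2688 with the DESeq2 test, and genes 2-fold higher 2595 with total counts. Genes lower numbered 2407 with RPKM and 2379 with total counts, and genes 2-fold lower 435 and 524. Long noncoding genes called lower numbered 75 at 200 or more summed reads, 77 with RPKM and 72 with total counts. Collagens called higher numbered 3 without genes 8-fold apart between the lines, a setting that leaves out COL6A1 and COL13A1 among others. The collagen median, less that of all genes, was 1.70 there, against 1.38 in the main fit. Histones called lower numbered 8 at 200 or more reads and 11 with total counts, and ZNF genes called higher 83 at 200 or more reads and 72 with DESeq2. Only 9151 genes were tested at 200 or more reads, so class counts at that setting can come from fewer members. For the difference between lines, genes higher in H1299 numbered 486 with DESeq2 and 264 with total counts, and genes lower 330 and 1683.

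Leaving out 1 library in turn gave 1284 to 2072 genes 2-fold lower, highest without the vector cytosol library. Long noncoding genes called lower numbered 75 to 129 and ribosomal protein genes called lower 26 to 44, both lowest without the FLII overexpression nuclear library. Histones called lower numbered 13 to 15, with 13 without the vector cytosol or the vector nuclear library and 14 without the FLII overexpression nuclear library. ZNF genes called higher numbered 72 to 133, with 72 without the FLII overexpression and 83 without the vector nuclear library. For the difference between lines, genes higher in H1299 numbered 255 to 1584 and genes lower 217 to 1003, both lowest without the HBE knockdown cytosol library and highest without the H1299 FLII overexpression cytosol library. The genes higher in H1299 also moved past 1.5-fold without the H1299 FLII overexpression nuclear (410), H1299 vector nuclear (379) and HBE NC cytosol (443) library, and the genes lower without these (375, 263 and 343) and without the HBE knockdown nuclear (358) and NC nuclear (346) library. A fit with 1 library in a fraction assumes that it varies like the others. Leaving out a H1299 library also leaves only 1 complete pair, so the 2-fold counts then need 2-fold in that pair alone. The 1267 genes 2-fold lower in the main fit needed it in both pairs. The higher counts of genes 2-fold lower are therefore not comparable with 1267 and do not show dependence on a library.

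The class medians, taken less that of all genes, kept their sign under every alternative for the 13 classes followed, but 5 moved by more than 1.5-fold. For ZNF genes the value was 0.43, against 0.27 at 200 or more reads and 0.18 with RPKM, and for genes of 8 kb or more 0.64, against 0.35 with RPKM. For long noncoding genes it was -0.24, against -0.45 at 200 or more reads and -0.39 without the vector nuclear library. For solute carriers it was 0.34, against 0.22 with RPKM and 0.22 without the vector cytosol library. For cytosolic ribosomal proteins it was -0.27, against -0.18 at 200 or more reads, -0.15 with RPKM, -0.11 without the FLII overexpression cytosol, -0.45 without the vector cytosol and -0.17 without the FLII overexpression nuclear library. The labels give no replicate numbers, but each nuclear library shares its plasmid with 1 cytosol library. With plasmid as a term of the model, which blocks by these pairs, 3796 genes were higher and 3475 lower. Counts near 50 reads over the 4 libraries limit what can be called for histones and small RNAs. Some settings also test fewer members of a class, which lowers the number that can be called. Apart from this and the looser requirement of the 2-fold counts with a library left out, the cause was not tested where a count moved.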

Other observations

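Genes of energy metabolism lay near the middle of the comparison, and proteasome subunits leaned slightly to the nuclear side. Counts called stand beside 32.7% higher and 30.4% lower of all genes. Of 74 tested genes of oxidative phosphorylation 25 higher and 29 lower were called, with a median log2 fold of -0.15. COX6C, a subunit of cytochrome oxidase, had 180.2 and 189.6 CPM in the nuclear libraries, against 73.0 and 81.1 CPM in the cytosol libraries (log2 fold 1.26 ± 0.122), while the complex I subunit NDUFA11 had 297 and 335 CPM in the nuclear libraries, against 937 and 841 CPM in the cytosol libraries (-1.49 ± 0.131). Of 16 glycolytic enzymes 5 higher and 7 lower were called, and GAPDH had 13486 and 14122 CPM in the nuclear libraries, against 25892 and 23170.0 CPM in the cytosol libraries (-0.83 ± 0.174). LDHB, a lactate dehydrogenase subunit, went the other way with 680.2 and 755 CPM in the nuclear libraries, against 271 and 266 CPM in the cytosol libraries (1.42 ± 0.127). Of 37 proteasome subunits 17 higher and 9 lower were called, 4 were 2-fold or more higher and 0 lower in both pairs, and the median was 0.20. PSMD1 had 379.6 and 407 CPM in the nuclear libraries, against 82.8 and 97.5 CPM in the cytosol libraries (2.12 ± 0.129).

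The counts here stand beside 32.7% called higher and 30.4% called lower of all genes. Of 62 translation factors 21 higher and 18 lower were called. EIF5B, which joins the ribosomal subunits, had 498 and 464 CPM in the nuclear libraries, against 84.3 and 86.2 CPM in the cytosol libraries (2.5 ± 0.128), while EIF4EBP1, the repressor of cap-dependent translation, had 116 and 127 CPM in the nuclear libraries, against 379 and 378 CPM in the cytosol libraries (-1.64 ± 0.122). Of 21 immediate early genes 4 higher and 8 lower were called. The secreted matrix proteins CYR61 (2.45) and CTGF (2.13) were higher in nuclear RNA, while the transcription factor JUND had 93.0 and 93.3 CPM in the nuclear libraries, against 295 and 309.9 CPM in the cytosol libraries (-1.70 ± 0.120). Of 15 snoRNA host genes 5 higher and 5 lower were called, with SNHG5 at 0.80 and SNHG11 at -1.63.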
